A study of Mus musculus with 2 samples.

Results

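The myosin heavy chain genes and an antisense RNA of their cardiac cluster are described here in the adult mouse heart, 10 genes in all: 9 myosin heavy chain genes, Myh6, Myh7, Myh7b, Myh1, Myh2, Myh4, Myh9, Myh10 and Myh11, and Mhrt, a long noncoding RNA transcribed opposite Myh7. They were chosen by name and make up 10 of the 43346 gene identifiers in the deposited tables. The samples were hearts of C57BL/6J mice, an inbred laboratory strain, taken as adults at 8 weeks of age, with no treatment or mutation named in the labels. The labels name 1 group of 2 libraries, biological replicates 1 and 2, of poly(A)-selected RNA from which short RNA had been removed, read as stranded pairs of 76 nucleotides. Nothing states which mice went into which library, so the spread between them may be partly technical.

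Myosin heavy chains are the motor subunits of the thick filament, and each pairs with light chains to convert ATP into movement along actin. The cardiac genes Myh6 and Myh7 lie head to tail in 1 cluster: Myh6 encodes the fast alpha chain that dominates the adult mouse ventricle, and Myh7 the slower beta chain that dominates before birth and returns under load or thyroid hormone loss. Mhrt is known in mouse as a heart-enriched antisense RNA of this cluster that binds the chromatin remodeller Brg1, encoded by Smarca4. The skeletal chains drive limb muscle, Myh11 drives smooth muscle, and Myh9 and Myh10 are non-muscle myosins of cell shape and division.

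Before the results, the libraries differed in ways that bear on them. Replicate 1 held 57464573 estimated counts and replicate 2 held 62912053. The 5 cardiomyocyte markers examined summed to 22836 TPM in replicate 1 and 27347 TPM in replicate 2 (TPM is a level per transcript length, scaled to a fixed sum in each library). The gap sat on Tnni3, cardiac troponin I, with 4631 and 11030 TPM: after scaling of the libraries, described with the tests, 3 of the 5 had lower counts in replicate 2, and the log2 ratios of all 5 had a median of -0.33. The 4 lung epithelium markers summed to 0.230 and 1591 TPM and the 3 erythroid markers to 4601 and 61710 TPM, both higher in replicate 2. Replicate 1 had 13725 counts of Xist and 0 of 4 Y-linked genes, and replicate 2 had 13 of Xist and 2916 of the Y-linked genes, although both libraries are labelled as pooled from males and females. Genes of the mitochondrial genome took 48.2% of the TPM in replicate 1 and 32.5% in replicate 2. Every value below is therefore given for each library. With 1 library on each side, no difference between them below can be told apart from these differences, that in the sex-linked genes among them.

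Myh6 was the main heavy chain of both libraries. The gene (ENSMUSG00000040752.11, chr14:54941921-54966927 of GRCm38, minus strand) had 1776 TPM in replicate 1 and 1685 TPM in replicate 2, a mean of 1731 ± 64.2 TPM (SD, n = 2). These levels rested on 599217 and 636398 counts, 1.06% and 1.03% of all counts on genes. Among protein-coding genes of the nuclear genome, Myh6 ranked 19 and 26 by TPM and 2 and 4 by counts. Of the summed TPM of the 9 myosin genes, 1828 and 1748 TPM, Myh6 held 97.2% in replicate 1 and 96.4% in replicate 2. Because TPM values share a fixed sum, mitochondrial transcripts move the level: without them Myh6 had 3431 and 2495 TPM.

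Myh7 was present at a small fraction of that level. The gene (ENSMUSG00000053093.11, chr14:54970684-54994626, minus strand) had 4.94 TPM from 1682 counts in replicate 1 and 8.61 TPM from 3135 counts in replicate 2, a mean of 6.78 ± 2.60 TPM (SD, n = 2). Replicate 2 was the higher library. Per length, Myh6 exceeded Myh7 by 360-fold in replicate 1 and 196-fold in replicate 2, or 8.49 and 7.61 on the log2 scale. Of the counts on both genes, Myh7 took 0.280% (exact binomial 95% interval 0.267 to 0.294) in replicate 1 and 0.490% (0.473 to 0.508) in replicate 2. The intervals do not overlap; they cover counting error only. In whole heart, fewer cells of a type and less RNA per cell cannot be told apart.

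Myh6 and Myh7 encode proteins of 1938 and 1935 residues that are 93.4% identical, with coding sequences 91.4% identical, so the assignment of short reads between them matters. Of the 6038 windows of 76 bases, the read length, in the main Myh6 transcript, 928 (15.4%) also occur in a Myh7 transcript. No window occurs in the transcripts of any other gene. Windows were compared on the sense strand only. The longest stretch that the pair shares without a mismatch has 245 bases of coding sequence. It spans exons 30 and 31 of Myh6 (chr14:54948327-54948725, minus strand) and exons 32 and 33 of Myh7 (chr14:54974947-54975347, minus strand), and is shown spliced because a fragment inside it fits both genes equally.
Myh6 and Myh7 shared stretch: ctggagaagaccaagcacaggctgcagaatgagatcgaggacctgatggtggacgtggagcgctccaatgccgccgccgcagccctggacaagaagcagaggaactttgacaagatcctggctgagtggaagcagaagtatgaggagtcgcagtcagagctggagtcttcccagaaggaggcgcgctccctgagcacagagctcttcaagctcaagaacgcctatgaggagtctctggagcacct

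The deposited tables give the uncertainty left by such sharing as a posterior standard deviation of the count. For Myh7 it was 3.34 counts of 1682 in replicate 1 and 6.50 of 3135 in replicate 2, or 0.199% and 0.207%. For Myh6 it was 3.34 and 6.49 counts, and for the other 8 genes it was 0. The uncertainty in dividing reads within this pair, as the tables state it, is far smaller than the gap in Myh7 between the libraries. The fit behind these values takes the annotated sequences as given, and the effect of sequencing errors in Myh6 reads on the low Myh7 count was not tested.

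Each cardiac heavy chain gene is also known as the host of a microRNA in an intron, and Myh7b is known to carry a related one. Their mature sequences are shown because the hosts differ so widely in level here; capitals mark the seed, bases 2 to 8, which leads target pairing.
miR-208a-3p: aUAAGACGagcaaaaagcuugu
miR-208b-3p: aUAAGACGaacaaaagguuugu
miR-499-5p: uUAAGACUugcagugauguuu
MiR-208a-3p (chr14:54949072-54949093, minus strand) lies in intron 29 of the 38 introns of Myh6, miR-208b-3p (chr14:54975710-54975731, minus strand) in intron 31 of the 40 of Myh7, and miR-499-5p (chr2:155622893-155622913, plus strand) in intron 19 of the 41 of Myh7b. MiR-208a-3p and miR-208b-3p share a seed, and that of miR-499-5p differs from it only in the last base, at position 8. All sequences are from RefSeq, build GRCm38.p6. The 3 microRNA genes are listed at 0 in both libraries, with an effective length of 0 in tables made from long RNA, so these data do not measure them.

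Myh7b, an ancient slow-type chain whose RNA in mammalian heart is known to be spliced largely into forms that give no protein, had a higher summed level than Myh7. The gene (ENSMUSG00000074652.3, chr2:155611212-155634307, plus strand) had 14.6 TPM from 2542 counts in replicate 1 and 20.2 TPM from 3750 counts in replicate 2, a mean of 17.4 ± 3.95 TPM (SD, n = 2). Myh7b over Myh7 was 2.96-fold in replicate 1 and 2.34-fold in replicate 2. Most of the Myh7b TPM, 56.6% in replicate 1 and 55.1% in replicate 2, sat on Myh7b-203, a transcript of 674 nucleotides annotated as a retained intron that ends 104 bases before the end of the full-length form. Only 262 of its bases (38.9%) lie in exons of that form, the coding transcript Myh7b-201. Whether Myh7b-203 is among the known forms that give no protein was not examined. By counts the order was the opposite: Myh7b-201 held 90.3% and 90.4%, and Myh7b-203 held 9.53% and 9.31%. With the full-length coding transcripts alone, Myh7b-201 had 6.17 and 8.64 TPM against 4.09 and 7.73 TPM for that of Myh7, or 1.51-fold and 1.12-fold. The lead of Myh7b over Myh7 thus shrank when the short transcript was left out.

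By TPM, Mhrt stood second to Myh6 among the 10 genes. It (ENSMUSG00000097652.2, chr14:54968678-54974349, plus strand) had 73.6 TPM from 2425 counts in replicate 1 and 83.1 TPM from 3191 counts in replicate 2, a mean of 78.4 ± 6.71 TPM (SD, n = 2). Per length, Mhrt exceeded Myh7, the gene it lies opposite, by 14.9-fold in replicate 1 and 9.65-fold in replicate 2. Mhrt is the shortest of these RNAs, and by counts, which are not divided by length, the same ratio was 1.44-fold and 1.02-fold. By counts Mhrt also stood below Myh7b, at 0.954-fold and 0.851-fold, against 5.04-fold and 4.12-fold by TPM, and below Myh9 in both libraries. By TPM, Mhrt stood at 0.0414 and 0.0493 times Myh6. With mitochondrial transcripts left out, Mhrt had 142 and 123 TPM in replicates 1 and 2, so the library that was higher changed.

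Of the 5672 bases of the Mhrt locus, 3666 lie inside the Myh7 locus. In the main transcript Mhrt-201, which has 5 exons, 463 of 828 exonic bases (55.9%) lie opposite exons of the full-length Myh7 transcript. In Mhrt-202, with 2 exons, 0 of 447 do. Mhrt starts 1750 bases from the start of Myh6, which runs the other way. The libraries are labelled stranded, but the labels and file headers do not say whether the counting used strand; without strand, reads of Mhrt and Myh7 in the overlap cannot be told apart. At the mean density of Myh7 counts along that transcript, the 463 opposite bases would hold 127 counts in replicate 1 and 236 in replicate 2, equal to 5.23% and 7.41% of the Mhrt counts. In the other direction the share is larger: at the mean density of Mhrt-201, with 2145 and 3023 counts, the same bases would hold 1199 and 1690 counts, equal to 71.3% and 53.9% of the Myh7 counts. If strand was not used, the Myh7 level and the ratios over Myh7 could thus shift far more than the Mhrt level. The posterior standard deviation of the Mhrt count was 0 in both libraries, so the tables state no uncertainty in dividing its reads from those of Myh7. For Myh7 it was 3.34 and 6.50 counts, beside 3.34 and 6.49 for Myh6. Whether the counting used strand was not tested.

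**Figure D1:**
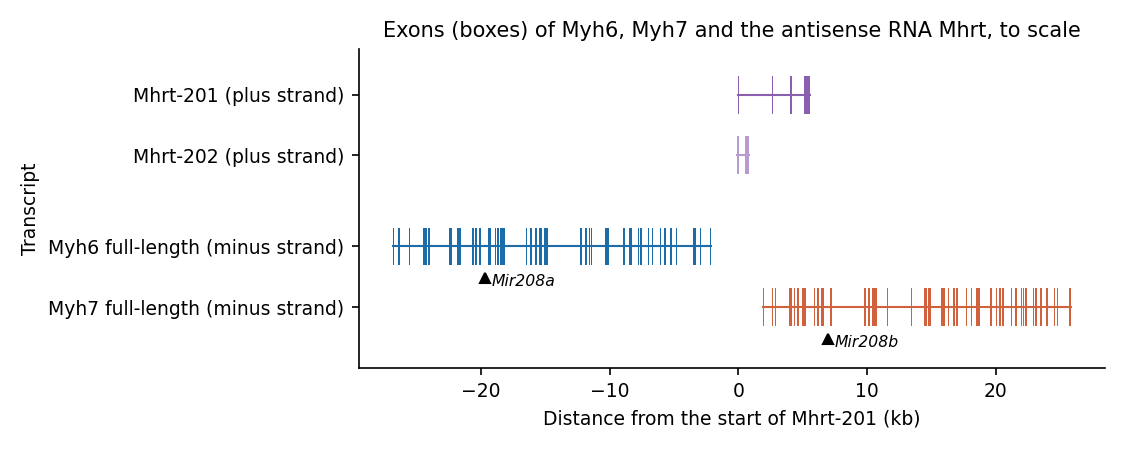
Map of the cardiac myosin cluster with the distance from the start of Mhrt-201 in kb on the horizontal axis and 1 transcript per row; boxes are exons, lines are introns and triangles mark the microRNA genes Mir208a and Mir208b. Mhrt-201 starts between the genes and its 5 exons reach into the far end of Myh7, while the 2 exons of Mhrt-202 stay outside Myh7.

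The promoters of the 3 cluster genes are shown because their levels differ so widely within 1 locus. Each run holds the bases around a RefSeq start site (build GRCm38.p6), with motif letters in capitals: TATAAA, the TATA box, and GGAATG, the reverse of CATTCC, the MCAT element bound by TEAD factors. Neither motif overlaps the other.
Myh6 promoter: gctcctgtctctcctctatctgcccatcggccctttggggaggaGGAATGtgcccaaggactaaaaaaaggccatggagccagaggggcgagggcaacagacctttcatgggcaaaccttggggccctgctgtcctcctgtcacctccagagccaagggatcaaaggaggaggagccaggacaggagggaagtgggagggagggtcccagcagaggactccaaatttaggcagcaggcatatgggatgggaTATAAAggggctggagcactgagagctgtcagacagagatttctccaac
Myh7 promoter: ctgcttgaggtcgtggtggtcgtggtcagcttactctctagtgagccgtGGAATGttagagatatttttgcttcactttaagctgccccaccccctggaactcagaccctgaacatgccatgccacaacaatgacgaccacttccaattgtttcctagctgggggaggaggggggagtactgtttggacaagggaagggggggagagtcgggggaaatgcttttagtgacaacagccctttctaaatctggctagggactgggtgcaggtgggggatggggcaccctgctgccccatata
Mhrt promoter: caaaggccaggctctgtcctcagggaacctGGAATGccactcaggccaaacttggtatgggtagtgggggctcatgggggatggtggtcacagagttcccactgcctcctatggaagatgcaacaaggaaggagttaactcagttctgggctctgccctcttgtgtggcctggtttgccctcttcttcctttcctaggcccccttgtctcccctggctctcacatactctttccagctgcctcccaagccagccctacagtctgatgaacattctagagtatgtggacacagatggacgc
The windows are chr14:54966558-54966857 on the minus strand for Myh6, chr14:54994577-54994876 on the minus strand for Myh7 and chr14:54968537-54968836 on the plus strand for Mhrt. Counted from the start site, the MCAT letters begin at position -206 in Myh6, -201 in Myh7 and -220 in Mhrt. The TATAAA letters of Myh6 begin at position 2, after the start site used here. Whether they act as a TATA box was not tested, and all these positions depend on the start site listed. Both strands were also searched for GATAA and for AGGTCA, a thyroid hormone receptor half-site, and these 3 windows held neither. CATTCC on either strand occurs in 14.7% of all 32851 promoter windows in the RefSeq table, TATAAA in 13.6%, GATAA in 25.4% and AGGTCA in 16.3%. Of the 9 members with a window, 6 held CATTCC and 5 held TATAAA, while GATAA was found in Myh7b and Myh2 alone and AGGTCA in Myh7b alone. These finds take either strand and any position. In Myh9, TATAAA lay only on the reverse strand, at position -123, and in Myh2 at position 11. A second window listed for Myh7, with a start site farther downstream, held none of the 4 motifs.

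The skeletal chains were near or at 0. Myh1, the chain of fast 2X fibres (ENSMUSG00000056328.10, chr11:67200052-67224575, plus strand), had 5 counts in replicate 1 and 0 in replicate 2. Myh2, of fast 2A fibres (ENSMUSG00000033196.13, chr11:67171027-67197517, plus strand), had 1 count and 0. Myh4, of the fastest 2B fibres (ENSMUSG00000057003.8, chr11:67238029-67260446, plus strand), had 0 counts and 1. A count of 0, taken as at most 3 counts, allows up to 0.0102 TPM of Myh1 and 0.0105 TPM of Myh2 in replicate 2 and 0.00835 TPM of Myh4 in replicate 1. Against these limits Myh6 was 164986-fold higher than Myh1 and 159971-fold higher than Myh2 in replicate 2. In replicate 1 it was 212810-fold higher than Myh4. The deposited credibility intervals reach above these limits, to 0.113 TPM of Myh1 and 0.0409 TPM of Myh2 in replicate 2. For Myh4 in replicate 1 the interval reaches 0.0131 TPM. Against these upper ends the folds would be smaller, so the values given hold only for the limit of 3 counts. The 3 genes share 16.7%, 16.1% and 9.54% of their 76-base windows with other skeletal chains, and none with Myh6 or Myh7. Of the 7 skeletal muscle markers, which summed to 27.0 TPM in replicate 1 and 68.2 TPM in replicate 2, 22.0 and 59.0 TPM were Myl1, and Tnnt3, the fast troponin T, had 1 and 34 counts. The list did not move as 1. Of the 6 markers with enough counts for the test given further on, 4 had scaled count ratios of replicate 2 over replicate 1 above 1. Myl1 and Tnnt3 were among these 4, and the other 2 had ratios below 1.

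The non-muscle and smooth muscle chains held a small part of the pool, given below. Myh9, the non-muscle chain 2A (ENSMUSG00000022443.12, chr15:77760587-77842175, minus strand), had 16.2 TPM from 5294 counts in replicate 1 and 15.9 TPM from 7210 counts in replicate 2, a mean of 16.1 ± 0.240 TPM (SD, n = 2). Myh10, the non-muscle chain 2B (ENSMUSG00000020900.11, chr11:68691559-68816632, plus strand), had 10.5 TPM from 1872 counts and 9.48 TPM from 1615 counts, a mean of 9.98 ± 0.700 TPM. Myh11, the smooth muscle chain (ENSMUSG00000018830.8, chr16:14194535-14291372, minus strand), had 5.78 TPM from 2320 counts and 8.29 TPM from 3506 counts, a mean of 7.04 ± 1.77 TPM. Myh9 and Myh10 together held 1.46% and 1.45% of the summed myosin TPM, Myh11 held 0.316% and 0.474%, and Myh7b held 0.799% and 1.16%. By TPM, Myh9 exceeded Myh10 by 1.55-fold in replicate 1 and 1.68-fold in replicate 2. The size of that lead depended on the measure, at 2.83-fold and 4.46-fold by counts and 5.03-fold and 9.06-fold for the full-length coding transcripts alone.

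Markers of the cells that use these chains were present in both libraries. The 6 smooth muscle markers summed to 461 TPM in replicate 1 and 487 TPM in replicate 2, most of it Acta2, smooth muscle alpha-actin, with 362 and 315 TPM. The other 5 of these markers had scaled count ratios of replicate 2 over replicate 1 above 1, as did Myh11; the list's median log2 ratio was 0.68, and Cnn1, the smooth muscle calponin, with 3.44 and 12.2 TPM, passed the test between libraries given further on. The 4 fibroblast markers summed to 301 and 320 TPM, the 3 endothelial markers to 116 and 122 TPM and the 3 immune markers to 73.0 and 195 TPM. Their part in the levels of Myh9, Myh10 and Myh11 was not tested, nor was that of the lung and blood transcripts of replicate 2.

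By mean TPM the order was Myh6, Mhrt, Myh7b, Myh9, Myh10, Myh11 and Myh7, then the skeletal chains. The lower part of this order did not hold in both libraries. Myh7b over Myh9 was 0.900-fold in replicate 1 and 1.27-fold in replicate 2, and Myh7 over Myh11 was 0.855-fold and 1.04-fold. The place of Mhrt changed with the measure as given above, and so did that of Myh10: Myh10 over Myh11 was 1.81-fold and 1.14-fold by TPM of whole genes, but 0.807-fold and 0.461-fold by counts, and 0.382-fold and 0.199-fold for full-length coding transcripts alone. These orders are a description with no test; for 2 libraries a two-sided exact sign test cannot give a p below 0.5, and no other test of them was run.

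**Figure D2:**
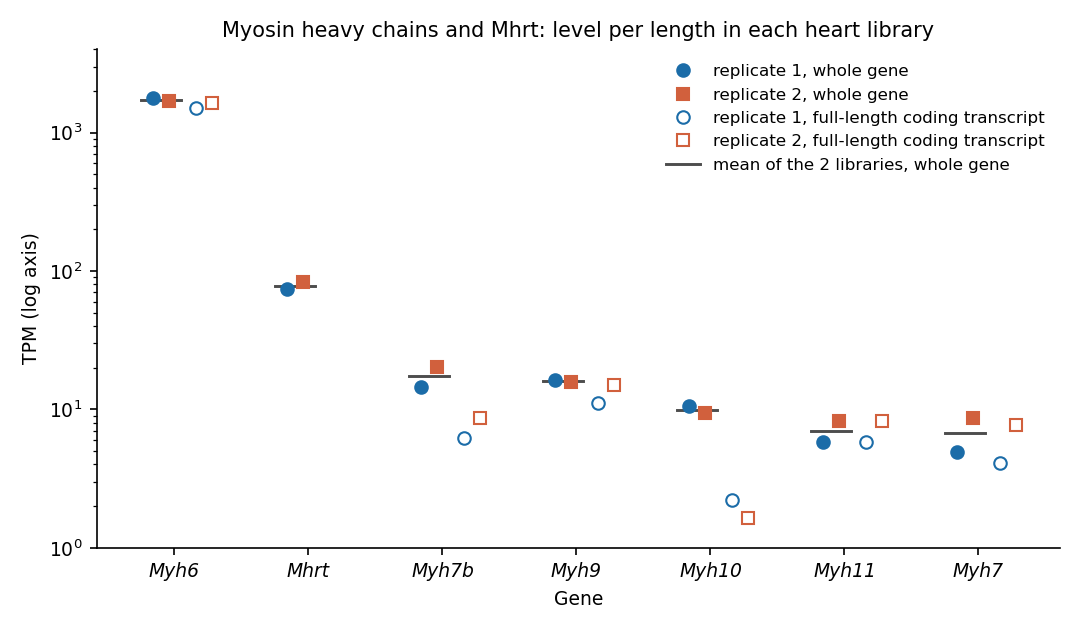
TPM on a log axis for the 7 genes with more than a few counts, ordered by mean; filled circles are replicate 1 and filled squares replicate 2 for the whole gene, open symbols are the full-length coding transcript alone, and lines are means of the 2 libraries. Myh6 lies at 1776 and 1685 TPM, Mhrt at 73.6 and 83.1 TPM, and the other 5 genes between 4.94 and 20.2 TPM; the open symbols of Myh10 and Myh7b lie well below the filled ones.

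Transcript forms differed between genes and between libraries. The full-length coding transcript of Myh6 held 84.1% of the Myh6 TPM in replicate 1 and 97.5% in replicate 2. Almost all of the gap sat on 1 transcript of 3578 nucleotides, ENSMUST00000145322.3, which held 13.7% in replicate 1 and 0.190% in replicate 2. It had 51134 counts in replicate 1, with a posterior standard deviation of 809, and 723 counts in replicate 2, with 95.9. Its structure is not given in the annotation used here, so what sets it apart from the full-length form was not examined.

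Myh7 showed a smaller gap of the same kind. The full-length coding form held 82.8% and 89.8% of the Myh7 TPM, and a noncoding form that keeps introns 17, 18 and 19 held 15.1% and 5.46%. Of Myh9, the full-length form held 68.5% and 94.1%, and a processed transcript of 720 nucleotides held 24.6% and 0.410%, from 129 and 2.25 counts. The posterior standard deviations of these counts were 20 and 15.4, so the count of replicate 2 is not told apart from 0 or from several times its value, and its share by posterior mean TPM was 3.87%. Of Mhrt, Mhrt-201 held 74.9% and 87.7%, and Mhrt-202 held 25.1% and 12.3%. In these 4 genes the main form held more of the gene in replicate 2.

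Myh10 was the other gene, beside Myh7b, whose leading form depended on the measure. A processed transcript of 1811 nucleotides that ends 88 bases before the end of the full-length form held 76.6% of the TPM in replicate 1 and 75.7% in replicate 2, but 42.9% and 47.2% of the counts. Of its bases, 98.9% lie in exons of the full-length coding transcript, which held 21.1% and 17.4% of the TPM and 56.0% and 51.1% of the counts. Myh11 had 1 annotated transcript. Of the 6 genes among the 10 that averaged at least 5 TPM and had at least 2 transcripts with counts, 3 had a transcript whose share moved by at least 10 percentage points between the libraries: Myh9 by 25.6 points, Myh6 by 13.5 and Mhrt by 12.8. Such shifts were found in 40.0% of the 5203 genes that met the same limits, and the median of the largest shift was 11.2 points over the 6 and 7.77 points over all. Over all genes, transcripts annotated as retained introns held 2.03% of the TPM in replicate 1 and 4.73% in replicate 2.

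**Figure D3:**
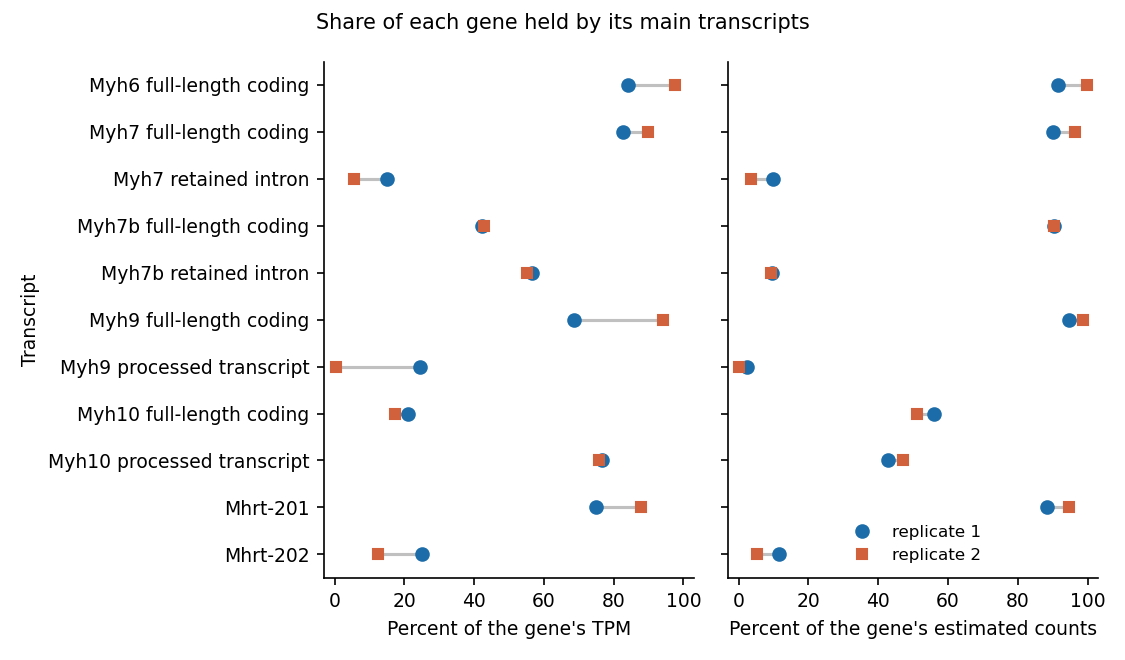
Share of a gene held by its main transcripts, as percent of the gene's TPM on the left and of its estimated counts on the right, with 1 transcript per row; circles are replicate 1 and squares replicate 2, joined by a line. The lines are long for both Myh9 transcripts on the left, and the retained-intron form of Myh7b and the processed transcript of Myh10 lead their genes on the left but not on the right.

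The libraries were compared gene by gene with a two-sided exact binomial test of the counts given TMM-scaled library sizes, over all 16145 genes with at least 20 counts, and a gene was called at an adjusted p below 0.05 (Benjamini-Hochberg) and a fold of at least 2. The test compares these 2 libraries, not conditions. Of the 10 genes 7 were tested, all but Myh1, Myh2 and Myh4, and 0 were called, against 11.8% of all tested genes, 8.21% called higher in replicate 2 and 3.57% called lower. Without the fold limit all 7 passed, and so did 67.8% of all tested genes, so that at this depth the adjusted p alone separates little. Taken as replicate 2 over replicate 1, the median log2 ratio was 0.19 for the 7 genes and -0.01 for all tested genes, whose central 95% ran from -1.20 to 2.28.

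Myh7 had the largest log2 ratio of the 7, 0.64, or 1.56-fold (exact 95% interval 1.47 to 1.66, adjusted p = 1.1e-49). Myh11 stood at a log2 ratio of 0.34 (ratio 1.27, interval 1.20 to 1.33) and Myh7b at 0.30 (1.24, 1.17 to 1.30). Myh9 stood at 0.19 (1.14, 1.10 to 1.18) and Mhrt at 0.14 (1.10, 1.04 to 1.16). Below 1 were Myh6, with a ratio of 0.889 (0.886 to 0.892), and Myh10, with 0.722 (0.675 to 0.773). Myh7 and Myh6 thus lay on opposite sides of 1 in these libraries.

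Several of these signs did not hold when the ratios were centred on genes alike in base composition or length. Centred in 20 bins of GC content, the log2 ratios of Myh7b, Myh9 and Mhrt turned to -0.15, -0.19 and -0.09. Centred in 20 bins of effective length, that of Myh6 turned to 0.09 and that of Mhrt to -0.05. Myh7 stayed above 0, at 0.34 with GC bins and 0.90 with length bins, as did Myh11, at 0.19 and 0.66. Myh10 stayed below 0, at -0.50 and -0.43. Markers known to rise with Myh7 under load were read beside it. Acta1, skeletal alpha-actin, had 358 and 907 TPM and Ankrd1, a stretch-responsive ankyrin, had 121 and 277 TPM. Both were called higher in replicate 2, as were 8.21% of all tested genes, and Ankrd1, at 2.02-fold, only just passed the fold limit. Nppb, the B-type natriuretic peptide, had 74.0 and 108 TPM and was not called. The 4 atrial markers summed to 2928 TPM in replicate 1 and 4680 TPM in replicate 2, with Myl7 called at 2.01-fold. The ratios of these markers were not centred in bins of GC content or length. What part the markers have in the Myh7 difference was not tested.

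**Figure D4:**
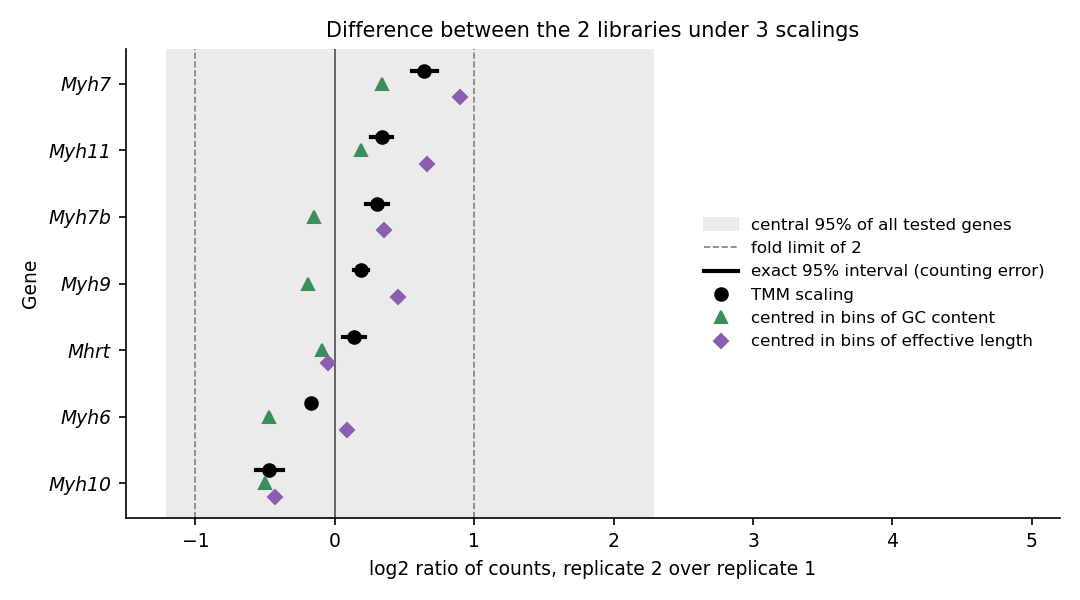
log2 ratio of counts, replicate 2 over replicate 1, for the 7 tested genes, 1 per row; black circles with bars are the TMM-scaled ratios with exact 95% intervals, triangles the ratios centred in bins of GC content and diamonds in bins of effective length. Dashed lines mark the fold limit of 2 and the shaded band the central 95% of all tested genes. All 7 genes lie between the dashed lines under each of the 3 scalings, and the symbols of Myh6, Myh7b, Myh9 and Mhrt fall on both sides of 0.

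Other genes of the motor were read with the same test, on TMM-scaled ratios that were not centred in bins. Of 5 further class II heavy chains in the tables, 1 was tested and not called: Myh14, the non-muscle chain 2C, with 8.63 TPM in replicate 1 and 12.2 TPM in replicate 2, close in level to Myh10. Myh8, the perinatal chain, had 2 and 12 counts, Myh13, of eye muscles, had 0 and 2, and the embryonic chain Myh3 and Myh15 had 0 in both. Of 11 light chains, all tested, 2 were called higher and 0 lower, against 8.21% and 3.57% of all tested genes, with a median log2 ratio of 0.30. A count of 2 is too small to be read as apart from that background. The called genes were Myl7, the atrial regulatory chain, with 393 and 878 TPM, and Myl1, a fast skeletal essential chain, with 22.0 and 59.0 TPM. Myl7, at 2.01-fold, only just passed the fold limit. The ventricular chains Myl2, with 3900 and 4103 TPM, and Myl3, with 4370 and 4971 TPM, were not called, nor was the atrial essential chain Myl4, with 490 and 683 TPM. Myl2 and Myl3 each stood above Myh6 per length in both libraries.

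Of 8 genes for binding and folding partners 6 were tested and 0 were called, against 11.8% of all tested genes. A list of 6 is too small to be read as apart from that share. The median log2 ratio was -0.06, and over all tested genes it was -0.01. Mybpc3, the cardiac myosin binding protein C, had 619 TPM in replicate 1 and 730 TPM in replicate 2, and Mybphl, a related protein of the atria, had 93.7 and 161 TPM. Smyd1, a methyltransferase that acts in myosin folding, had 130 and 102 TPM, and Unc45b, the muscle myosin chaperone, had 55.6 and 56.3 TPM.

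Of 16 genes linked to the control of Myh6 and Myh7, as transcription regulators or as targets of their microRNAs, all were tested and 0 were called higher and 1 lower, against 8.21% and 3.57% of all tested genes. The median log2 ratio was -0.40, with 13 genes below 0 and 3 above it. These ratios were not centred in bins of GC content or length, a step that turned the sign of several members. The called gene was Mstn, the secreted growth inhibitor myostatin, with 79 counts in replicate 1 and 19 in replicate 2, a log2 ratio of -2.31. Gata4, a cardiac transcription factor, had 54.6 and 57.7 TPM, and Srf, the serum response factor, had 38.1 and 52.0 TPM. Thra, the thyroid hormone receptor alpha, had 36.4 and 47.4 TPM, and Mef2a, a muscle transcription factor, had 36.6 and 34.8 TPM. None of these 4, the highest of the list by mean TPM, was called; Srf and Thra, with log2 ratios of 0.27 and 0.30, are among the 3 genes above 0.

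**Figure D5:**
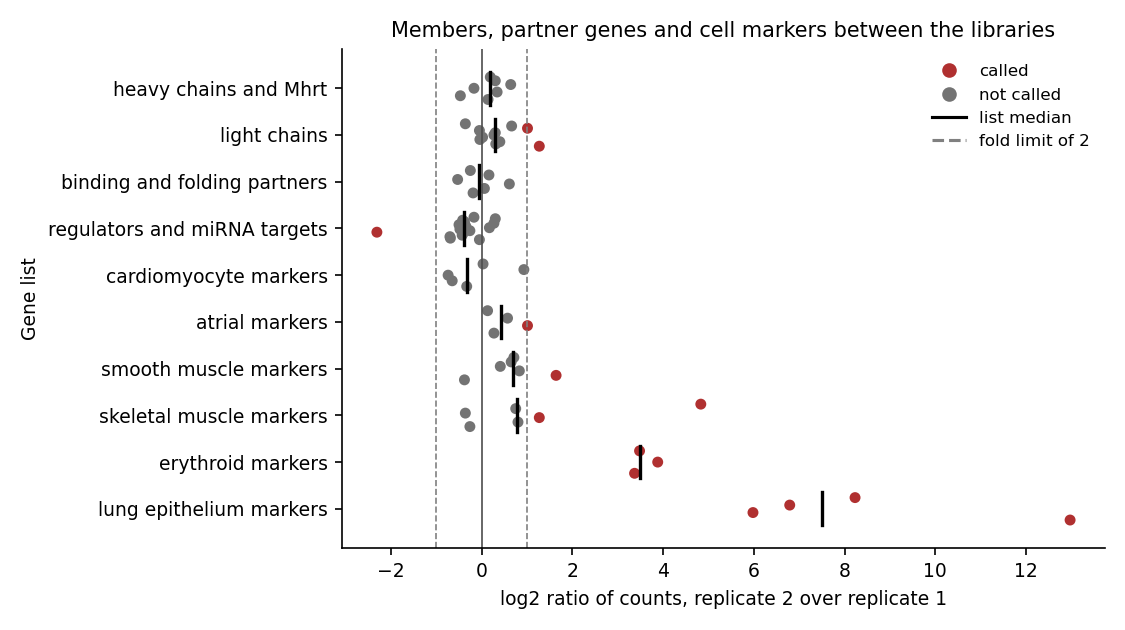
log2 ratio of counts, replicate 2 over replicate 1, with 1 point per tested gene and 1 list per row; red points are called genes, grey points are not, black bars are list medians and dashed lines the fold limit of 2. Genes at 0 in replicate 1 are drawn with that library at 3 counts. The heavy chains and Mhrt lie inside the fold limit, 2 light chains and Mstn, of the regulators and microRNA targets, lie outside it, and the erythroid and lung epithelium markers lie far to the right.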

How the data were processed

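Poly(A)-selected heart RNA was measured in 2 libraries of 1 group. The authors deposited gene and transcript tables on mm10 with GENCODE M4, per the notes beside them, which name no aligner or counter. Per the file headers, the tables hold expected counts (estimates of fragments), their posterior means, and TPM and FPKM values that divide them by effective length. The transcript tables also give, per the file headers, the percent that each transcript takes of its gene, and the gene tables the posterior standard deviation of each count. Deposited junction and contig lists on mm9, with no gene or library names, were not used.

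Symbols and coordinates came from GENCODE M21 on the same assembly: 42462 of 43346 identifiers (98.0%) matched. Counts were rounded and scaled with TMM factors 0.957 and 1.04 from edgeR 4.0.16 in R 4.3.3; 98.3% of counts lay on genes in each library. A library at 0 was set to 3 counts. Python 3.11.15, scipy 1.17.1, pandas 2.3.3, numpy 2.4.6, matplotlib 3.10.9 and biopython 1.88 were used, and DESeq2 1.42.0 for size factors. The binomial test was tried on simulated counts with planted changes and counting error only, which leaves out other spread between libraries.

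Mature microRNAs and promoters came from RefSeq tables (GRCm38.p6), with 3 microRNA genes and 9 of 10 members matched. The members, gene lists, markers and motifs were chosen with earlier results of these data known. All 10 members are named, and of each other list the called genes and up to 4 of highest mean TPM. The remaining class II heavy chains were named as well, after their values were seen. Alternatives were other scalings, count and TPM estimates, filters, bins of GC content or length, and 1 library left out.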

Additional observations from a re-analysis of the deposited data

How the results depend on the processing

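No member was called under any of the 6 alternative settings of the test between libraries, which called between 1502 and 2331 genes in all; total counts as scale moved the median of all genes to 0.11. No paired analysis was possible because there was 1 group. Centring in bins of GC content reversed the log2 ratios of Myh7b (-0.15), Myh9 (-0.19) and Mhrt (-0.09), and bins of effective length those of Myh6 (0.09) and Mhrt (-0.05). The summed TPM of the 9 myosin genes, 1788 as reported, became 1906 as FPKM and 3060 without mitochondrial genes. With expected counts in place of TPM, the Myh6 share of the pool was 97.4%, log2 Mhrt over Myh7 was 0.28, and the shares were 93.2% for the full-length Myh7 form, 9.42% for Myh7b-203, 45.0% for the processed transcript of Myh10 (72.2% by posterior mean TPM) and 91.6% for Mhrt-201. Counts are not divided by length, which by construction favours long transcripts; the cause of the other moves was not tested. Counts also reversed the log2 ratios of Mhrt over Myh7b (-0.15), Myh10 over Myh11 (-0.71), Myh10 over Myh7 (-0.40) and Myh7b over Myh9 (-1.0). Full-length coding transcripts alone, an alternative chosen after seeing the data, reversed Myh10 over Myh11 (-1.86), Myh10 over Myh7 (-1.56) and Myh7b over Myh9 (-0.82). Leaving out 1 library reversed Myh11 over Myh7 (-0.05 without replicate 1, 0.23 without replicate 2) and Myh7b over Myh9 (0.35 without replicate 1, -0.15 without replicate 2); such values are those of the remaining library. Log2 Myh6 over Myh7 lay between 7.60 (replicate 2, posterior mean TPM) and 8.51 (replicate 1, full-length coding transcripts) in single libraries under these settings.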

Other observations

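The deposited 95% credibility interval of the Myh6 TPM ran from 1759 to 1773 in replicate 1 and from 1672 to 1682 in replicate 2, so the deposited maximum likelihood values, 1776 and 1685 TPM, lay just above it in both libraries. The main transcripts of Myh9 and Myh10 share 47 windows of 76 bases, 0.639% of those in Myh9 and 0.609% of those in Myh10. Those of Myh7b and Myh11 share none with any other gene. Mhrt shares 12 windows (1.59%), with Gm49130 alone. These comparisons took the sense strand only and leave out the bases of Mhrt that lie opposite Myh7 exons.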
